A study of Mus musculus with 80 samples.

Results

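The 5′ splice site of exon 9 of *Ptbp1* was edited in Hepa1-6 cells, a hepatoma line derived from a C57L mouse, with the same sgRNA and 1 of 2 adenine base editors that differ in their deaminase. The members are the 9 samples labelled with this sgRNA, of 80 in the series: 3 received *Sp*G-ABEmax, 3 received *Sp*G-ABE8e, and 3 are controls. The controls were given the sgRNA without an editor. All wells were transfected with 400 ng of DNA in total and 0.5 µl of Lipofectamine2000, and genomic DNA was collected after 5 d. Editors and sgRNA came from transiently transfected plasmids, and DNA was taken by direct lysis with no selection or sort of transfected cells described. Each sample is 1 table of alleles with their read counts, over a window of 40 bases around the target.

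PTBP1 is an RNA-binding protein that represses many exons, among them neuronal ones. Introns begin with a conserved GT dinucleotide, the core of the 5′ splice site, which the U1 snRNA reads by base pairing together with the last exon bases and the next few intron bases. An adenine base editor fuses a Cas9 nickase to a laboratory-evolved TadA deaminase, which converts adenine to inosine on the strand displaced by the sgRNA, and inosine is then read as guanine. ABE8e carries a later and faster deaminase than ABEmax. *Sp*G is a Cas9 variant that accepts NGN PAMs, the short motif next to the protospacer, where the parent enzyme asks for NGG. Because the sgRNA here lies on the strand opposite to the gene, an edited adenine turns a T of the gene into a C, and the GT of the splice site into GC.

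The sequences the results turn on are the window and its protospacer, shown 5′ to 3′ on the sgRNA strand. They lie at chr10:79696780-79696819 and chr10:79696790-79696809 of GRCm39, on the minus strand, opposite to *Ptbp1* (ENSMUSG00000006498.18) on the plus strand. The PAM is TGC. Capitals mark the protospacer in the first line and the target adenine in the second.
window: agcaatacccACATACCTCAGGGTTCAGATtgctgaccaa
protospacer: acatAcctcagggttcagat
Positions are counted from 1 at the 5′ end of the protospacer, and from -1 backwards before it. Changes are named on the sgRNA strand by the reference base, the position and the base seen, so that A5G stands for guanine at the target adenine. The protospacer holds 6 adenines. A5, at 79696805, pairs with base 2 of intron 9, right behind exon 9 (79696658 to 79696803, 146 bases, in ENSMUST00000172282.8). A3 and A1 pair with bases 4 and 6 of the same intron. A10, A17 and A19 lie in exon 9, where A10G and A19G leave codons 370 and 367 unchanged and A17G gives L368P. Of the 30 annotated transcripts of the gene, 18 use this splice site.

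Read on the gene strand, the last 3 exon bases in lower case and the first 6 intron bases in capitals, the splice site and its 2 most frequent edited forms are as follows, to show which intron bases the neighbouring edit replaces.
unedited: gagGTATGT
A5G: gagGCATGT
A3G and A5G: gagGCACGT

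The tables held 3826 to 6062 reads per sample and 46025 in all. Where a sample has 0 reads of a change, up to 3 reads remain possible, which is between 0.0495% and 0.0784% of its reads, and at the target the Wilson 95% interval of the shallowest ABEmax sample ran from 55.5% to 58.6%. The reads carry no molecular identifiers and come from PCR, so these limits hold for counting error only.

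The 3 controls were not alike. In control replicates 1 and 2, C-2A was found in 10.5% and 10.9% of reads and T8G in 7.08% and 7.56%, whereas in control replicate 3 they were found in 0.0352% and 0.405%, within the range of the 6 edited samples (0.0330% to 0.204% and 0.340% to 0.438%). C-3A showed the same split, with 1.12% and 0.957% against 0.0176%. The median share of substituted reads over the 37 window positions other than 3, 5 and 10 was 0.0360% and 0.0233% in control replicates 1 and 2, 0.0881% in control replicate 3 and 0.0815% to 0.123% in the edited samples. The allele counts of control replicates 1 and 2 agree within sampling noise (chi-square test, p = 0.375), while either differs from control replicate 3 (p = 9.59e-244 and 2.50e-251). These 2 tables were therefore averaged and counted as 1 sample, which leaves n = 2 for the control. The chi-square test does not show that they are the same sample. With 3 controls counted as 3 samples, target editing exceeded the controls by 72.9 points for ABE8e and 57.7 points for ABEmax (exact permutation test, p = 0.1 for each). The *Sp*G-ABEmax tables all differed from each other (p between 7.31e-05 and 0.000765). Among the *Sp*G-ABE8e tables, the chi-square test separated replicates 1 and 2 (p = 0.0105), but not replicate 3 from replicate 1 (p = 0.410) or replicate 2 (p = 0.168). Unlike the controls, this leaves no pair that stands apart from the rest of its group, and all were kept as separate samples. Counting replicate 3 as 1 sample with replicate 1 or with replicate 2 gave a difference from ABEmax in target editing of 14.7 or 15.5 points (exact permutation test, p = 0.2, the smallest then possible).

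With ABE8e the target adenine was edited in more reads than with ABEmax, at 74.4%, 71.2% and 73.2% of reads against 60.9%, 55.4% and 57.1%. The groups did not overlap, and the difference of the means was 15.2 percentage points (exact permutation test, two-sided, p = 0.1, the smallest that 3 samples against 3 allow, adjusted p = 0.15 over the 6 protospacer adenines). The 3 controls had 0.0360%, 0.0467% and 0.194% of reads with A5G, and the highest of these was the control whose other errors resembled those of the edited samples. Both editors exceeded every control (exact permutation test, p = 0.2, the smallest that 3 samples against 2 allow). No exact permutation test of 3 samples against 3 or against 2 can fall below 0.05.

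The wider contrast between the deaminases lay at A3, the intron adenine 2 bases 5′ of the target. A3G was found in 0.815%, 0.634% and 0.601% of reads with ABEmax and in 25.5%, 24.7% and 26.0% with ABE8e, a 37.2-fold ratio of the means. It was seen in 1, 0 and 0 reads of the controls. A10G, a silent exon change, followed with 0.509%, 0.429% and 0.549% against 5.26%, 4.50% and 5.09%, a 9.99-fold ratio. For comparison, the ratio at the target itself was 1.26. At both adenines the deaminase groups were far apart (exact permutation test, p = 0.1, adjusted p = 0.15 for each).

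A1G, at base 6 of the intron, was found in 0.244%, 0.307% and 0.131% of reads with ABEmax and 0.581%, 0.429% and 0.657% with ABE8e, a 2.44-fold ratio without overlap (exact permutation test, p = 0.1, adjusted p = 0.15). The separation rests on rare alleles, since with alleles of at least 0.2% of reads the difference was 0.154 points and the groups overlapped (exact permutation test, p = 1.0). The ABEmax values overlapped those of the controls, which reached 0.176% (exact permutation test, p = 0.4). At the far adenines almost nothing was measured. A17G, which among the 3 exon adenines of the protospacer is the one whose change alters an amino acid, was seen in 5 of 13626 reads with ABEmax and 11 of 16883 with ABE8e, and A19G in 1 and 4. Their highest shares in any edited sample were 0.0825% and 0.0375%, and ABE8e and ABEmax overlapped at both (exact permutation test, p = 0.3, adjusted p = 0.3). With A17G, ABE8e lay above every control (0.0547% to 0.0825% against 0.0176% to 0.0233%), on 3, 5 and 3 reads against 1 read in each control, and with alleles of at least 2 reads the groups overlapped (exact permutation test, p = 0.6).

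**Figure D1:**
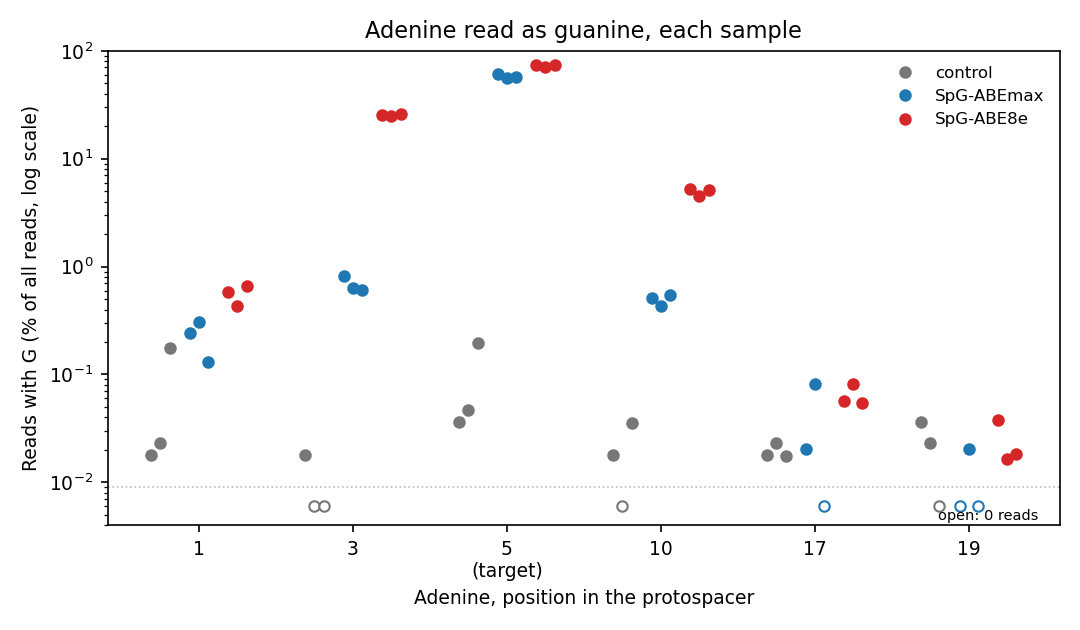
Each point is 1 sample and gives the share of its reads (log axis) with guanine at 1 of the 6 protospacer adenines, with open points below the dotted line for samples without such a read. The ABE8e points lie above the ABEmax points at positions 1, 3, 5 and 10, with the widest gap at position 3 (25.4% against 0.683% on average), and at positions 17 and 19 all groups stay below 0.1%.

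The reads can also be sorted by the full set of protospacer adenines that each carries as guanine. With ABEmax, 56.9 ± 2.79% (mean ± s.d., n = 3) of reads carried A5G and no other such change, and the next sets, A3G with A5G and A5G with A10G, reached 0.427 ± 0.0333% and 0.355 ± 0.0337%. With ABE8e the target alone was edited in 44.8 ± 0.774%, and 22.7 ± 0.546% carried A3G and A5G, 2.57 ± 0.426% A5G and A10G, and 2.28 ± 0.111% all of A3G, A5G and A10G. The last set was found in 120, 133 and 132 reads of the ABE8e samples and in no read of ABEmax or control samples.

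Counted by number, 28.2 ± 1.05% of ABE8e reads held 2 or more adenine edits against 0.938 ± 0.0348% of ABEmax reads, and no control read did. Reads with 3 edits made up 2.54 ± 0.182% with ABE8e and were 2 in all with ABEmax. Reads with 4 edits (A1G, A3G, A5G and A10G) were seen 2, 4 and 4 times in the ABE8e samples only. Of the 19 sets seen, all were found with ABE8e, 12 with ABEmax and 7 in the controls.

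**Figure D2:**
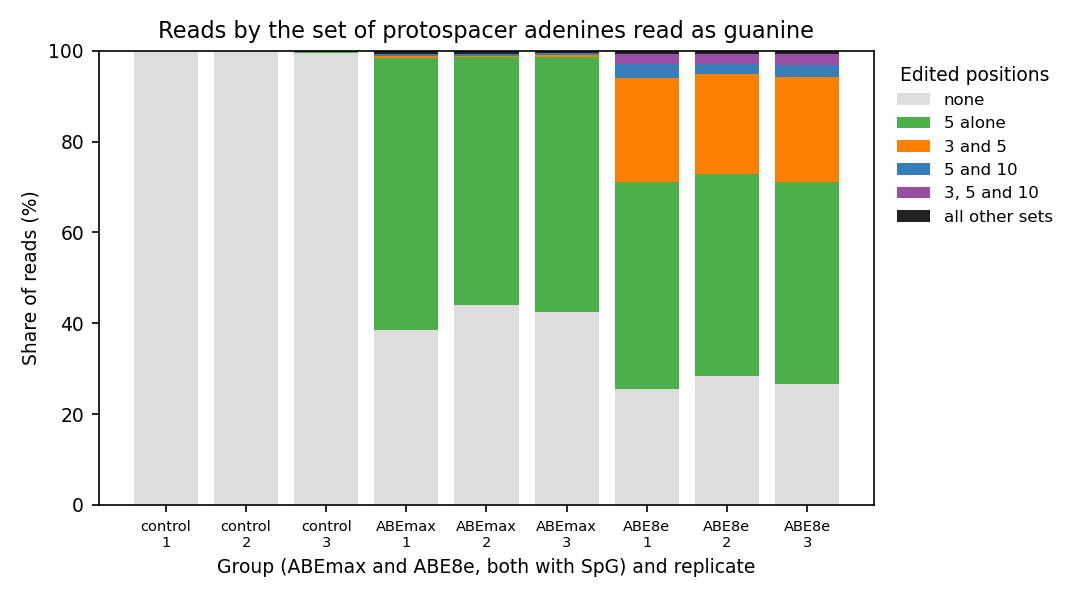
Stacked bars give the share of reads of each sample (linear axis from 0 to 100%) by the set of protospacer positions read as guanine. The part with position 5 alone is 56.9% on average with ABEmax and 44.8% with ABE8e, whose bars add a part of 22.7% with positions 3 and 5.

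With ABE8e, nearly all reads edited at A3 were also edited at the target. Among target-edited reads, 0.736%, 0.738% and 0.778% also carried A3G with ABEmax and 34.2%, 34.5% and 35.5% with ABE8e, 34.7 ± 0.693% on average (exact permutation test, p = 0.1, adjusted p = 0.12 over 6 measures). Read the other way, 99.6%, 99.4% and 99.9% of the reads with A3G also carried A5G with ABE8e. With ABEmax this was 55.0%, 64.5% and 73.9%, of 40, 31 and 23 reads. The share of all ABEmax reads with A5G was 60.9%, 55.4% and 57.1%, above the share among A3G reads in replicate 1 and below it in replicates 2 and 3. On so few reads the Wilson 95% intervals are wide (39.8% to 69.3%, 46.9% to 78.9% and 53.5% to 87.5%), and each holds the share of all reads. A3G without A5G was rare in both groups, with 35 reads of 13626 for ABEmax and 15 of 16883 for ABE8e.

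A10G showed the same order. It was carried by 0.568% to 0.687% of target-edited reads with ABEmax and by 7.07%, 6.18% and 6.95% with ABE8e (exact permutation test, p = 0.1, adjusted p = 0.12). All 281 reads with A10G in ABE8e replicate 1, 267 of 273 in replicate 2 and all 279 in replicate 3 also had A5G, while with ABEmax it was 68.0%, 81.0% and 71.4% of 25, 21 and 21 reads. These ABEmax shares lay above the share of all reads with A5G (60.9%, 55.4% and 57.1%) in each sample, but on few reads. The Wilson 95% intervals of replicates 1 and 3 (48.4% to 82.8% and 50.04% to 86.2%) hold the share of all reads. That of replicate 2 (59.999% to 92.3%) lies above it. In ABE8e samples A10G was more frequent among target-edited reads with A3G (8.99%, 9.21% and 9.55%) than among those without (6.08%, 4.59% and 5.52%), a ratio of 1.48, 2.00 and 1.73. The direction was the same in each of the 3 samples. A1G showed it too, with 1.11%, 0.941% and 1.33% of target-edited reads with A3G against 0.573%, 0.353% and 0.502% without. With ABEmax, none of the 59 target-edited reads with A3G carried A10G. These reads are too few for a contrast with ABE8e, as the Wilson 95% upper limits of the samples were 14.9%, 16.1% and 18.4%.

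**Figure D3:**
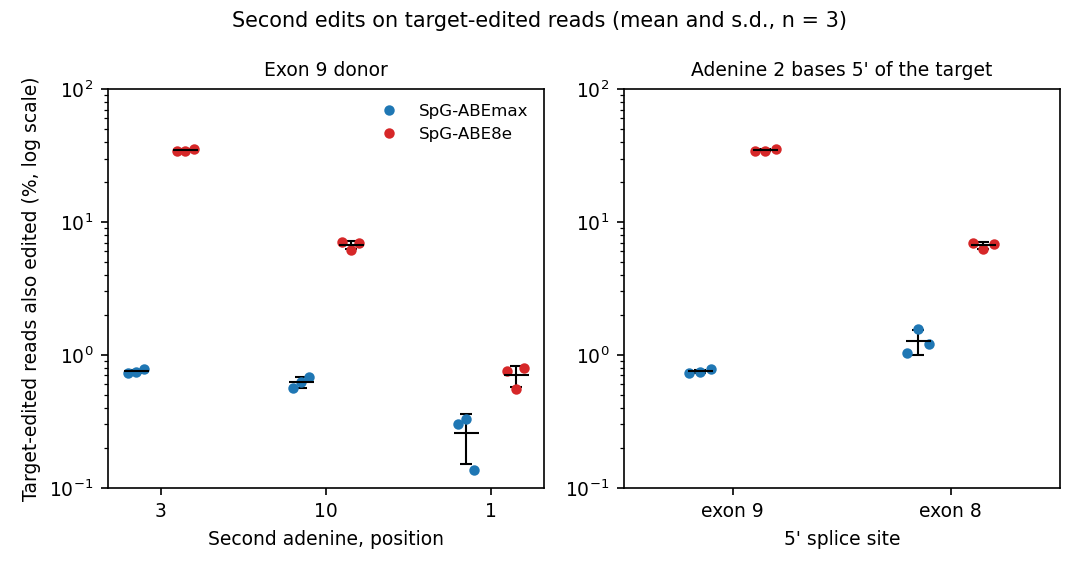
Points are samples, and bars give the mean and s.d. (n = 3), of the share of target-edited reads (log axis) that carry a further edit, at positions 3, 10 and 1 of the exon 9 site on the left, and at the adenine 2 bases 5′ of the target in the exon 9 and exon 8 sites on the right. At position 3 the means are 0.751% with ABEmax and 34.7% with ABE8e. At the exon 8 site they are 1.26% and 6.68%.

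Reads with the target edit as the only protospacer change were fewer with ABE8e, although its total target editing was higher. Target-edited reads with no other change in the protospacer made up 96.5%, 96.2% and 96.2% of target-edited reads with ABEmax and 59.9%, 60.9% and 59.5% with ABE8e (exact permutation test, p = 0.1, adjusted p = 0.12). As a share of all reads, such clean alleles were 58.8%, 53.3% and 54.9% with ABEmax and 44.5%, 43.4% and 43.6% with ABE8e. With ABE8e in place of ABEmax, target editing was 15.2 points higher and the share of clean alleles fell by 11.8 points, with no overlap in either measure (exact permutation test, p = 0.1, adjusted p = 0.12 for clean alleles). Of the target-edited ABE8e reads, 37.7 ± 0.684% held a further A-to-G change and no other kind of change in the protospacer, and 1.32 ± 0.245% held only another kind. With ABEmax these shares were 1.54 ± 0.0791% and 2.07 ± 0.187%.

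The alleles themselves are few. The 8 most frequent window sequences of each group held 94.6% to 95.1% of ABE8e reads, 95.6% to 96.0% of ABEmax reads and 96.5% to 98.5% of control reads. The protospacers of the 5 that lead with ABE8e are printed here with the changed bases in capitals, since they hold most of its reads.
reference: acatacctcagggttcagat
A5G: acatGcctcagggttcagat
A3G and A5G: acGtGcctcagggttcagat
A5G and A10G: acatGcctcGgggttcagat
A3G, A5G and A10G: acGtGcctcGgggttcagat
With ABE8e the A5G allele led at 42.3 ± 0.447% of reads, the unedited reference held 25.5 ± 1.53%, and the alleles with A3G and A5G, with A5G and A10G, and with all of these changes followed at 21.4 ± 0.493%, 2.39 ± 0.415% and 2.10 ± 0.116%. With ABEmax the A5G allele held 54.0 ± 2.60% and the reference 39.5 ± 2.86%. No other ABEmax allele reached 1% on average. The next was A5G with A-4C, at 0.789 ± 0.288%, followed by A-4C alone (0.413 ± 0.0401%) and then the alleles with A3G and A5G (0.389 ± 0.0401%) and with A5G and A10G (0.326 ± 0.0404%).

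Among the remaining alleles of the leading 8, several carried A-4C, a change that the controls hold as well. It was present in 1.53% to 2.04% of reads of every edited sample and 1.23% of control replicate 3, but in 0.0720% and 0.0934% of control replicates 1 and 2. On its own or with A5G or A3G it gave 3 of the leading ABE8e alleles and 2 of the leading ABEmax alleles. ABEmax also had A3G alone (0.220 ± 0.128%, and 1 read in control replicate 1) and A5G with T8G (0.134 ± 0.0286%). The leading control alleles after the reference were C-2A, T8G, C-3A, A-4C, T-5G, C-2A with T8G, and T15G, of which C-3A, T-5G and the pair of C-2A and T8G were not seen as window sequences of their own in any edited sample. In all, 667 different window sequences were found, of which 443 occurred in only 1 sample and 4 in all 9.

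Every window position was then compared between the groups, counting each position read as 1 other base or as a gap as a feature. Of the 156 features seen in ABE8e or ABEmax samples, 13 (8.33%) were higher in all ABE8e samples than in all ABEmax samples and 23 (14.7%) were lower. Every ABE8e sample had more reads (5339, 6062 and 5482) than every ABEmax sample (4910, 4890 and 3826). A feature with 1 read in each sample is therefore called lower with ABE8e. All 13 higher features were substitutions, whereas 11 of the lower ones were gaps, so that by substitutions alone the counts were 13 and 12. A deletion gives 1 gap feature for each window base it removes, so neighbouring gaps from the same reads are not independent. The 6 protospacer adenines read as guanine included 4 of the higher ones and none of the lower ones. Of all 36 features that did not overlap, 6 differed by 0.1 percentage points or more on average. These were A1G, A3G, A5G, A10G, A-4G and T-5C, and ABE8e was higher in each.

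A-4G and T-5C lie in the intron, outside the protospacer. A-4G was found in 0.393%, 0.577% and 0.511% of ABE8e reads, 0.143%, 0.266% and 0.235% of ABEmax reads, and 0.0720%, 0% and 0.141% of control reads. In ABE8e samples it lay on 0.478% to 0.741% of target-edited reads and 0.146% to 0.272% of the other reads. T-5C, which on the other strand is an adenine read as guanine, was found in 0.206%, 0.198% and 0.164% of ABE8e reads and in at most 0.0881% of any other sample. These were chosen by their difference, so no test is given. The other flanking adenines, A-10, A-7, A-6, A26, A29 and A30, were read as guanine in at most 0.187% of reads of any edited sample. A26G and A30G did not overlap between ABE8e and ABEmax (means of 0.178% against 0.107% and 0.0241% against 0%), with ABE8e higher, but at A26G control replicate 3 had 0.211%. A-10G and A-7G were lower with ABE8e (means of 0.0178% against 0.0291% and 0.0232% against 0.0718%). No edited sample exceeded 0.0407% at A-10G or 0.0375% at A30G. Both values lie below the 0.0495% to 0.0784% that 3 reads make up, so these calls rest on very few reads.

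Against the controls, 35 of 138 features (25.4%) were higher with ABE8e and 44 of 152 (28.9%) with ABEmax, whereas 3 (2.17%) and 4 (2.63%) were lower. Of the protospacer adenines, 5 of 6 were higher with ABE8e (all but A19, with A17 resting on the few reads given above) and 3 of 6 with ABEmax (A3, A5 and A10). The background of the controls moves with this count, since control replicates 1 and 2 had fewer substituted reads per position, and its part in the count was not tested. The features that exceeded the controls by 0.1 points or more were, for ABE8e, the 4 protospacer adenines 1, 3, 5 and 10, with A-4G, A-4C, T-5C, C7T and C9A. For ABEmax they were A3G, A5G and A10G, with A-4G, A-4C and C9A, and C-3A was lower. A-4C and C9A did not separate the deaminases.

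**Figure D4:**
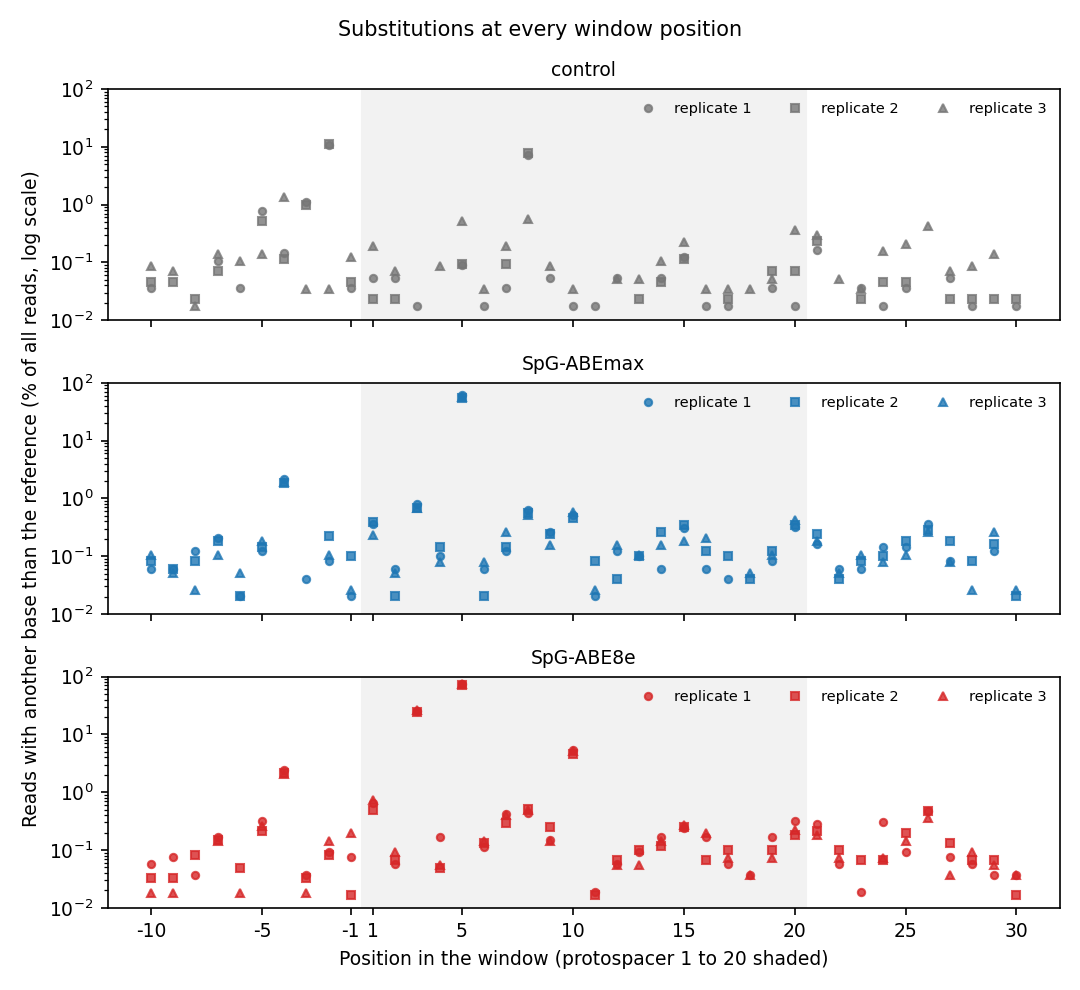
Each point gives, for 1 sample (marker shape by replicate) and 1 of the 40 window positions, the share of reads with a base other than the reference (log axis), with the protospacer shaded. Above 1%, ABEmax samples hold positions -4 and 5, ABE8e samples positions -4, 3, 5 and 10, and control replicates 1 and 2 stand out at positions -2 and 8.

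Cytosines of the protospacer (positions 2, 6, 7, 9 and 16) were read as another base in 0.180%, 0.117% and 0.387% of control reads, 0.530%, 0.532% and 0.706% of ABEmax reads, and 0.899%, 0.792% and 0.857% of ABE8e reads. ABE8e exceeded ABEmax by 0.260 points without overlap (exact permutation test, p = 0.1, adjusted p = 0.12), and both exceeded the controls (p = 0.2, exact permutation test). The excess over the controls was 0.581 points for ABE8e and 0.321 points for ABEmax. Over control replicate 3 alone, whose background was nearer that of the edited samples, it was 0.462 and 0.202 points. With alleles of at least 2 reads the difference between the editors fell to 0.104 points with overlap (exact permutation test, p = 0.4), and ABEmax overlapped the controls (exact permutation test, p = 0.6). C-to-T changes were 0.263 ± 0.0524% with ABE8e, 0.185 ± 0.0231% with ABEmax and at most 0.108% in a control. Changes of any kind averaged 0.849% with ABE8e and 0.589% with ABEmax, so most of them were to other bases than T. The largest single C-to-T change was C7T, at 0.206%, 0.0825% and 0.109% of ABE8e reads against 0.0261% to 0.0611% of ABEmax reads. At the other cytosines, no single C-to-T change exceeded 0.0818% of reads in any sample.

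Insertions and deletions inside the window were rare in all groups. They made up 0.204%, 0.102% and 0.105% with ABEmax, 0.206%, 0.165% and 0.109% with ABE8e, and 0.0180%, 0.0233% and 0.0352% in the controls, that is 19, 27 and 4 reads. The editors overlapped (exact permutation test, p = 0.5), and each lay above all controls (exact permutation test, p = 0.2). The order of the editors turned with the indel numbers deposited for each allele, which reach beyond the window. By these, 0.550%, 0.491% and 0.470% of ABEmax reads and 0.318%, 0.429% and 0.274% of ABE8e reads held an indel, with ABEmax higher by 0.163 points (exact permutation test, p = 0.1). The controls then had 0.198%, 0.303% and 0.335%, which ABE8e overlapped (a difference of 0.0476 points, exact permutation test, p = 0.6), while ABEmax stayed above them (p = 0.2, exact permutation test). Deletions were found in 0.163%, 0.102% and 0.105% of ABEmax reads and 0.112%, 0.0495% and 0.0912% of ABE8e reads, and insertions in 0.0407%, 0% and 0% against 0.0937%, 0.115% and 0.0182%. The editors overlapped in both. The make-up of these few reads is given as a description, with no test. With ABEmax, 17 of 19 indel reads were deletions, 10 of them took out the target adenine, 5 spanned the predicted nick between positions 17 and 18, and the longest removed 61 bases. The most frequent were deletions of 61 and 30 bases with 2 reads each in ABEmax replicate 1, and the other 15 indel alleles had 1 read each. With ABE8e, 14 reads were deletions, 2 took out the target adenine, none spanned the nick, and 13 reads were insertions, against 2 with ABEmax and none in the controls. The longest ABE8e deletion removed 47 bases, and 9 removed 1 base. The 13 insertions came from all 3 ABE8e samples, as 5, 7 and 1 reads. All 4 control deletions removed 1 base.

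Of the 12 ABE8e insertions of 4 or more bases, 9 were copies of the bases right beside them when an adenine was allowed to be read as guanine, and 7 of these copies held such an edited base. An insertion can be placed in several ways, and the placement with the fewest edited bases was taken. Of the 13 insertions, 8 were aligned in front of position 11. Of these copies, 4 are printed because their edits lie at A3, A5 or A10, as in the leading substitution alleles, with the edited bases in capitals. The copy of positions 6 to 13 holds A10G only, as it does not reach the target, and the target adenine of that read was unedited.
copy of positions -3 to 14: cccacGtGcctcGgggt
copy of positions -3 to 13: cccacGtGcctcaggg
copy of positions -10 to 10: agcaatacccacGtGcctca
copy of positions 6 to 13: cctcGggg
The copy of positions -10 to 10 is the part that the window shows of an insertion of 49 bases. Of the 2 ABEmax insertions, 1 was a copy too, of positions -3 to 5 with A5G. The 27 ABE8e indel reads gave 27 different alleles of 1 read each, although some shared an indel and differed elsewhere in the read. Loss of the base at position -3 was seen in ABE8e replicates 1 and 3, and the same 6 bases were inserted before position 11 in 2 reads of ABE8e replicate 2.

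The site was set beside 2 other 5′ splice sites that were edited with both *Sp*G editors, those of exons 3 and 8, each with 3 samples per editor. They were chosen as those with the highest editing, which is itself compared below. Further 5′ splice sites edited with *Sp*G in the series were left out. The protospacers of exons 3 and 8 share a core with that of exon 9, given here with the target adenine in capitals.
exon 9: acatAcctcagggttcagat
exon 3: cttAcctgctgaggcagagc
exon 8: aatAcctgcggcctgaggga
The bases TACCT, which hold the target, are shared by exon 9 and exon 3, and ATACCT by exon 9 and exon 8, so that exon 8 also has an adenine 2 bases 5′ of its target, at position 2. ABE8e raised target editing over ABEmax by 15.2 points at exon 9, 21.1 points at exon 3 and 20.6 points at exon 8. The gain at exon 9 minus that at exon 3 was -5.94 points, with a standard error of 2.10 points, and minus that at exon 8 it was -5.47 points, with a standard error of 3.38 points. With the same replicate number left out of every group of both sites, the second of these ranged from -7.47 points (without replicate 1) to -2.95 points (without replicate 3). The exact permutation test over 400 arrangements (p = 0.6 and p = 0.645, adjusted p = 0.645 for both) exchanges the deaminases within each site, so that its spread holds the gains themselves, and it does not show that the gains were alike. Total editing with ABE8e was 73.0 ± 1.60% at exon 9, 92.9 ± 1.02% at exon 3 and 67.6 ± 1.29% at exon 8.

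The neighbouring adenine told the sites apart with ABE8e, and with ABEmax the difference rested on few reads. With ABE8e it was edited on 34.2%, 34.5% and 35.5% of target-edited reads at exon 9 and on 6.95%, 6.24% and 6.84% at exon 8, a difference of 28.0 points (exact permutation test, p = 0.1, adjusted p = 0.1 over the 2 deaminases). With ABEmax the order was the other way round, with 0.736% to 0.778% at exon 9 and 1.03%, 1.56% and 1.21% at exon 8, a difference of -0.51 points (exact permutation test, p = 0.1, adjusted p = 0.1). With each deaminase the sites did not overlap. The ABEmax shares rest on 22, 20 and 17 reads at exon 9 and on 19, 23 and 14 reads at exon 8. At exon 9 their Wilson 95% upper limits (1.11%, 1.14% and 1.24%) reach into the range of exon 8. No control of the exon 8 site was used, so its background at this adenine is not given. The adenine has the same bases on its 3′ side at both sites but sits 1 position further from the 5′ end at exon 9, and the rest of the protospacer and the PAM (TGC against TGG) differ too, so that their parts cannot be told apart. Clean alleles made up 88.2% to 90.0% of target-edited reads at exon 8 and 97.0% to 97.4% at exon 3 with ABE8e, against 59.5% to 60.9% at exon 9. These shares are not on an equal footing. The protospacers hold 6 adenines at exon 9, 5 at exon 8 and 4 at exon 3, and exon 3 has none 2 bases 5′ of its target.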

How the data were processed

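Hepa1-6 cells were sampled in 3 biological replicates per group, per the labels. Target sites were amplified in 30 and 8 cycles of PCR, sequenced on an Illumina MiSeq and aligned to the amplicon by the authors with CRISPResso2 (version and settings not given in the sources used here). The deposited tables give a raw read count per allele in a window of 40 bases, without normalization. The deposited numbers of inserted, deleted and substituted bases (unit: other) reach beyond the window: 17.2% to 27.1% of reads had more substitutions than the window shows, so single changes outside it were not seen. Tables held 3826 to 6062 reads.

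The members of this comparison, its alleles and its lists were chosen with earlier results of these data known. The window was matched to GRCm39 and GENCODE M39, since no build is named for the amplicons. Tables were turned to the sgRNA strand, rows with the same window sequence were summed, no read was filtered out, and every share is a percent of all reads of a sample unless a smaller denominator is named. Groups came from the labels, and the sample was the unit. Control replicates 1 and 2 were averaged as 1 sample after a chi-square test of allele counts (classes under 10 reads pooled). Groups were compared by two-sided exact permutation tests, which double the smaller tail, with Benjamini-Hochberg adjustment over the 6 protospacer adenines, over the remaining measures of a contrast and over the other splice sites. A feature is a window position read as 1 other base or gap, and was called when the groups did not overlap. Named were all protospacer adenines, other features whose group means differed by 0.5 points or more, the 8 most frequent alleles of each group and the 5 most frequent indel alleles of each editor. Features differing by 0.1 points, insertion copies, the reverse shares (A5G among A3G or A10G reads) and shares split by A3G were added after values were seen.

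Alternatives were alleles of at least 2 reads or 0.2%, reads without indels or without T8G, log odds with 0.5 added, the deposited indel numbers, leaving out each replicate, and the replicate number as a block. Added after seeing the data were 3 controls as 3 samples, control replicate 3 alone, substitutions alone and merged *Sp*G-ABE8e replicates. Scripts used Python 3.11.15, numpy 2.4.6, scipy 1.17.1, pandas and matplotlib 3.10.9, and were tested on 45 simulated tables of 5000 reads, all of which were recovered. The tables of the other samples were not used here, except those of the exon 3 and exon 8 sites with *Sp*G.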

Additional observations from a re-analysis of the deposited data

How the results depend on the processing

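Of 548 recomputed values, 526 kept their direction (counts, their size within 1.5 times). For values other than counts, direction alone was scored, so some whose groups came to overlap are among the 526. As in the values reported, no p was below 0.05, which tests of 3 samples against 3 or 2 cannot reach. Leaving out 1 replicate at a time, ABE8e exceeded ABEmax by 14.0 to 16.7 points in target editing, by 24.4 to 25.1 points in A3G and by 4.30 to 4.68 points in A10G, and its difference in clean alleles of all reads was -13.0 to -10.3 points. The order of the editors in indel reads turned with alleles of at least 2 reads (-0.0280 points) and with the deposited indel numbers (-0.163 points). With alleles of at least 0.2% of reads, the share of A10G reads with A5G no longer differed between the editors (a difference of 0 points), that of A3G reads with A5G differed by 15.7 points with overlap, in place of 35.2 (exact permutation test, p = 1.0), the A1G difference was 0.154 points in place of 0.328 (p = 1.0 by exact permutation), and A17G, A19G, indels and cytosine changes had no reads left to compare. A19G turned negative for ABE8e against the control with alleles of at least 2 reads (-0.00909 points) and without control replicate 3 (-0.00561 points, the lowest of -0.00561 to 0.0130 on leaving out 1 replicate), and positive for ABEmax against control replicate 3 alone (0.00682 points). A17G for ABEmax turned negative without ABEmax replicate 2 (-0.00896 points, range to 0.0319 without ABEmax replicate 3).

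The count of features that did not overlap depended on rare reads. For ABE8e against ABEmax it was 36, with 7 for alleles of at least 2 reads, 3 for alleles of at least 0.2% and 43 to 67 on leaving out 1 replicate (67 without ABEmax replicate 2). Against the controls it was 38 for ABE8e and 48 for ABEmax, with 11 and 5 for alleles of at least 2 reads, 3 and 4 for alleles of at least 0.2%, 25 and 30 both for reads without indels and for substitutions alone, and 37 to 68 and 43 to 75 on leaving out 1 replicate. The highest of these were 68 and 73 without control replicate 3 and 75 without ABEmax replicate 2. With control replicate 3 alone it was 62 for ABE8e. Fewer samples leave more features without overlap by construction, and the cause of the rest was not tested.

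Replicate numbers are shared by the groups, but same-numbered ABE8e and ABEmax samples did not deviate together (correlations of 0.18, -0.27 and -0.08 over 32 features). With the replicate number as a block, target editing differed by the same 15.2 points (exact permutation test, p = 0.25, the smallest that 3 pairs allow). The difference from the controls, here each counted as a sample of its own, was then 72.9 points for ABE8e and 57.7 points for ABEmax. Depth limits what can be said of A17G, A19G, A-10G, A-7G, A30G and single indel alleles, which rest on 0 to 5 reads per sample.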
